A study of Mus musculus with 5 samples.

Results

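The regions described here are 10913 autosomal 1 kb tiles of the mouse genome (build mm9) that are rich in CpG dinucleotides and almost free of DNA methylation. A tile was dense when at least 40 CpG positions within it were listed in any of the 5 deposited tables, and it was measured when at least 3 CpGs had a second count of 10 or more in every library. Of 152678 measured tiles 13005 were dense, and members were chosen by the pooled deposited level in K9M replicate 2, which had to be under 10%. The members were 83.9% of the dense tiles and 7.15% of all tiles. The other 2092 dense tiles serve as the contrast, 390 of them at 10 to 50% in that library and 1702 above. Because K9M replicate 2 chose the members, its low levels are a description, and no test below sets them against another group. Where they are printed beside other libraries, the rule caps them. In K36M against WT that library enters the fit only through the dispersion, and the counts without it are given there.

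Reduced representation bisulfite sequencing was applied to 5 libraries: 1 from wildtype mice (WT), 2 from K36M mice and 2 from K9M mice. The labels call the mutants dominant negative H3.3 at lysine 36 and at lysine 9, that is, H3.3 with methionine in place of that lysine. Both mutants received 2 mg/ml doxycycline in drinking water, which the labels do not state for WT, so doxycycline and mutation cannot be told apart. The promoter that drives the mutant histone, the strain, the age and the number of animals are not given in the sources used here. The labels do not tie replicates to separate animals, so a p-value here may reflect no more than technical variation among the libraries. Cells are named HSCs (hematopoietic stem cells) in one label and sorted cells of peripheral blood in another. Each library had 12 PCR cycles.

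CpG islands are stretches where CpGs are frequent and usually unmethylated in somatic cells, and they cover the start of most broadly expressed genes. CXXC-domain proteins such as KDM2B and CFP1 bind unmethylated CpGs there, and trimethylated lysine 4 of histone H3, common at islands, keeps the de novo methyltransferases DNMT3A and DNMT3B away. Methylated lysine 36 of histone H3 recruits these enzymes elsewhere, through their PWWP domains, while methylated lysine 9 is linked to methylation of repeats through UHRF1 and HP1 proteins. Methylation gained at an island is associated with stable silencing of its gene.

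Setd2, which encodes the enzyme that trimethylates lysine 36 of histone H3, and Irf8, a transcription factor of monocytes and dendritic cells, are shown first as regulators whose promoters were at 1.38% or less in every library. The 250 bases before each RefSeq start (from the table of build GRCm38.p6) are shown 5′ to 3′ on the gene's strand, with the CpGs measured in all 5 libraries in capitals.
Setd2: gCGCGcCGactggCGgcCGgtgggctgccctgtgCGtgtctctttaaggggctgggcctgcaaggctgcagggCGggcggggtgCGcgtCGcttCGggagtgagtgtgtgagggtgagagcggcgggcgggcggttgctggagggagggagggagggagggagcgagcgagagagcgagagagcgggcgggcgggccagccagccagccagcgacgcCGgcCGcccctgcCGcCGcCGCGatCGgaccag
Irf8: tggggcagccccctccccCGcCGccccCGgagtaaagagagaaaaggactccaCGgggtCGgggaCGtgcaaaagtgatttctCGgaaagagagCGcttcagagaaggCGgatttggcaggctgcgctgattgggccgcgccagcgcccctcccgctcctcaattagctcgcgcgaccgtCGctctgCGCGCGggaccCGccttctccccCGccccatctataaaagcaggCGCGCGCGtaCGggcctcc
The Setd2 window (plus strand, overlapping the tile before the one that holds the start, measured CpGs at chr9:110434852-110435094 in mm9) had 31 CpGs, 17 of them measured. Its relative level, defined below, was 0.261% in WT, 0.492% and 0.0835% in the K36M pair and 0.312% and 0.515% in the K9M pair, from 1 to 5 methylated counts per library. At Irf8 (plus strand, chr8:123260026-123260250), 20 of 29 CpGs were measured and the levels were 1.38%, 0.232%, 0.603%, 0.340% and 0.762% in the same order, WT then K36M then K9M. The whole Irf8 tile was higher, at 3.63%, 5.15%, 4.01%, 3.49% and 2.89%, so its methylation lay mostly outside the promoter window.

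The other promoters shown lie in, or at Cbfa2t3 beside, members where 1 library or 1 group stood apart, and their values are taken up with the comparisons.
Actg1: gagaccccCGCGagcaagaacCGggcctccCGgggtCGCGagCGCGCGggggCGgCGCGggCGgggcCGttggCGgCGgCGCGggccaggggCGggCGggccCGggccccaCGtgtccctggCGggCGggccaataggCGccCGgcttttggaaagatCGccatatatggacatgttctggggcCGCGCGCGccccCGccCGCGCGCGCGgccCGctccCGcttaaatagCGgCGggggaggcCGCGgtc
Cdk2ap1: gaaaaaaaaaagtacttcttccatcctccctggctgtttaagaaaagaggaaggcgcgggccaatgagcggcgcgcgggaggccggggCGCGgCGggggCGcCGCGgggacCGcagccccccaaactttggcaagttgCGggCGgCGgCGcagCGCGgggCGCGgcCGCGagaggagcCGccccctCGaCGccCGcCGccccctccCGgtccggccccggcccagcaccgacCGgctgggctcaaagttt
Cbfa2t3: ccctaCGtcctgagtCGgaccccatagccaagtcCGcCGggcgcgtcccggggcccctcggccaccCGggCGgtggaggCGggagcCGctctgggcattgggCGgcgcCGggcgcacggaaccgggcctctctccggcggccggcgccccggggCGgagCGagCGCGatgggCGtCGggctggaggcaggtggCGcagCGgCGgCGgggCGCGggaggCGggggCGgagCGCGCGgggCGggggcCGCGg
Dnm2: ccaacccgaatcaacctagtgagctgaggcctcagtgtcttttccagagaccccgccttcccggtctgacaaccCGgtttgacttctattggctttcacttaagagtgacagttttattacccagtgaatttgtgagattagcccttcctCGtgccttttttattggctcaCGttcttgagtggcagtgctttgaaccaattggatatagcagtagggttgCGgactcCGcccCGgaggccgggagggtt
Actg1 encodes a cytoplasmic actin, Cdk2ap1 a regulator of the cell cycle, Cbfa2t3 (ETO2) a transcriptional corepressor of blood cells and Dnm2 a dynamin of endocytosis. The Actg1 window (minus strand, chr11:120209813-120210051) had 43 measured CpGs and was at 4.77% in WT, against 0.356% and 0.259% in the K36M pair and 0.255% and 0.337% in the K9M pair. In the other windows the highest level in any library was 0.312% at Cdk2ap1 (minus strand, chr5:124804654-124804799), 1.15% at Cbfa2t3 (minus strand, chr8:125202077-125202320) and 0.911% at Dnm2 (plus strand, chr9:21229176-21229336). With the 50 bases after the start included, Dnm2 was far higher. It was then at 8.87% in WT, 18.1% and 4.58% in the K36M pair and 29.1% and 2.95% in the K9M pair. Within the printed bases a count of 0 was seen at Cdk2ap1 in K9M replicate 2, which allows up to 0.447%. The same held at Dnm2 in WT and K36M replicate 2, which allows up to 1.04% and 0.950%. All 6 windows contain CCGG, the site cut by MspI. CCGG is its own reverse complement and is present in this window for 95.97% of 6746 promoters that start in a member and for 47.8% of all 31396 autosomal promoters in the table. The median number of CpGs was 23 and 6 in these sets. Members need many listed CpGs, which MspI fragments supply, so this contrast follows in part from how members were chosen.

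The relative level is the methylated count divided by the second count, in percent of the library's own plateau at fully methylated tiles. The second count is the deposited total minus the methylated count in 4 libraries and the total itself in K9M replicate 2, because the deposited totals follow another scale there. This reading was inferred from the values. Between 3356656 and 3534966 CpGs were listed per library, with total counts of 111738339 to 174743796. In the members the median second count per CpG was 58.9 for WT, 45.7 and 57.0 for the K36M pair and 46.1 and 61.7 for the K9M pair. Per tile the median second count was 2266 to 3053, so that a count of 0 would allow a level of 0.0835% to 0.109% at that depth. Intervals and limits of this kind cover counting error only. They treat every count as independent, although neighbouring CpGs can share reads.

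Residual methylation in the members was near 1% in every library and nearly the same in all of them. The mean over 10913 tiles was 1.27% in WT, 1.49% and 1.30% in K36M replicates 1 and 2, and 1.31% and 1.20% in K9M replicates 1 and 2. The median tile lay at 0.488%, 0.639%, 0.537%, 0.510% and 0.464% in that order, less than the mean because a minority of tiles carries much of the methylation. K36M averaged 1.40% ± 0.135 (SD, n = 2), which is 0.132 points above WT, a difference smaller than the K36M SD. Replicate 1 alone set most of it: without that library the difference was 0.0365 points, and without replicate 2 it was 0.227 points. K9M replicate 1 lay 0.0408 points above WT. Without division by the plateau the median tile was at 0.602% in WT, 0.777% and 0.676% in K36M and 0.700% in K9M replicate 1, so the plateau narrowed the gap between WT and K9M replicate 1. In the other 2092 dense tiles WT was at 80.5%, K36M at 79.6% ± 0.222 and K9M at 79.97% ± 1.02 (SD, n = 2 each). An unconverted cytosine and a methylated one give the same base, so residual methylation and incomplete conversion cannot be told apart at these levels.

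**Figure D1:**
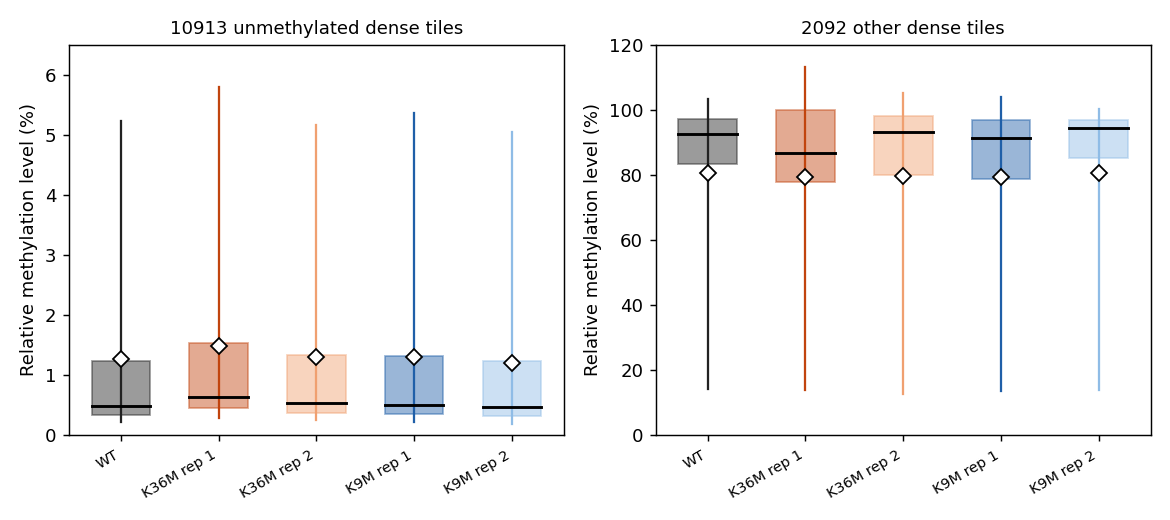
Relative methylation level per library (percent of the library's plateau) in the 10913 members (left) and in the 2092 other dense tiles (right, another axis range). Boxes span the 25th to 75th percentile of tiles, lines the 5th to 95th, black bars the median and diamonds the mean; member medians run from 0.464% to 0.639%.

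Most members were under 1% in each library: 7766 tiles for WT, 7190 and 7575 for the K36M pair and 7608 and 7778 for the K9M pair. Between 13 and 23 tiles per library had no methylated count at all. At the upper end, 82 members reached 10% in WT, 120 and 79 in K36M and 71 in K9M replicate 1, while the rule left 23 in K9M replicate 2. The ordering of tiles was shared by the libraries, as the Spearman correlation between 2 libraries over the 10913 tiles ran from 0.764 to 0.791. That range describes tiles that share sequence and fragment depth and has no test. K36M replicates 1 and 2 gave the highest value, 0.791.

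Single CpGs showed where that residual level sits. Of 592966 measured CpGs in members, 67.1% had no methylated count in WT, 66.8% and 64.9% in the K36M pair and 69.0% and 72.2% in the K9M pair. CpGs at 20% or more were 0.825% to 1.00% of all, yet outside the 12 members of extreme depth they held 24.3% of all methylated counts in WT, 22.3% and 19.8% in the K36M pair and 24.4% and 22.5% in the K9M pair. Outside the same 12 members, CpGs at 50% or more numbered 1288 for WT, 1184 and 1000 for the K36M pair and 1312 and 1333 for the K9M pair. K36M replicate 1 thus had the highest median tile, and both K36M libraries had the fewest CpGs at 50% or more. With 1 WT library, that order was not tested.

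The denser a member, the lower its level. Tiles with 40 to 59 listed CpGs (5233 tiles) averaged 1.45% in WT, 1.66% and 1.47% in K36M and 1.50% in K9M replicate 1. With 100 or more listed CpGs (1184 tiles) the means were 0.887%, 1.13%, 0.937% and 0.914%. K36M replicate 1 was the highest and WT the lowest of these 4 libraries in both classes. The tiles with the most listed CpGs, 178 at Ranbp9 (a scaffold protein that binds the small GTPase Ran), 177 at Med13l (a subunit of the Mediator kinase module) and 169 at A930018O16Rik, were at 0.333%, 0.792% and 0.294% in WT. Mean levels by chromosome ran from 0.925% on chromosome 10 to 1.53% on chromosome 12 in WT, and chromosome 10 was lowest in all 5 libraries.

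Transcription starts were far more frequent in members than in other dense tiles. Starts were placed by matching the spacing of CpGs in each RefSeq promoter to the listed positions, with at least 10 CpGs matched and no listed CpG in the window left unmatched. Outside chromosome 18, where starts were not searched here, 5350 of 10579 members (50.6%) held a matched start, of 6004 genes, against 99 of 2030 other dense tiles (4.88%) and 5.58% of all measured tiles. Members with a start averaged 0.929% in WT, 1.09% and 0.957% in K36M and 0.970% in K9M replicate 1. Those without a matched start averaged 1.61%, 1.91%, 1.66% and 1.66%. The match finds only promoters with many listed CpGs, so the second class also holds starts that were not placed.

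Around 6734 matched starts in members, methylation formed a trough with its floor just upstream of the start. The 200 bases before the start averaged 0.637% in WT, 0.788% and 0.672% in the K36M pair and 0.654% and 0.583% in the K9M pair. It rose to 22.7%, 21.3%, 20.7%, 22.5% and 23.8% between 2000 and 1801 bases upstream, and to 26.1%, 23.5%, 24.1%, 26.1% and 27.3% between 1800 and 1999 bases downstream. The K36M libraries crossed the others on the way: within 399 bases of the start K36M replicate 1 was the highest library, and beyond 1000 bases on either side both K36M libraries lay below WT and both K9M libraries. Only starts in members were profiled, and members were chosen for a low level, so a low centre follows in part from that choice. The bins take in measured CpGs of neighbouring tiles, member or not, and the profile has no test.

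**Figure D2:**
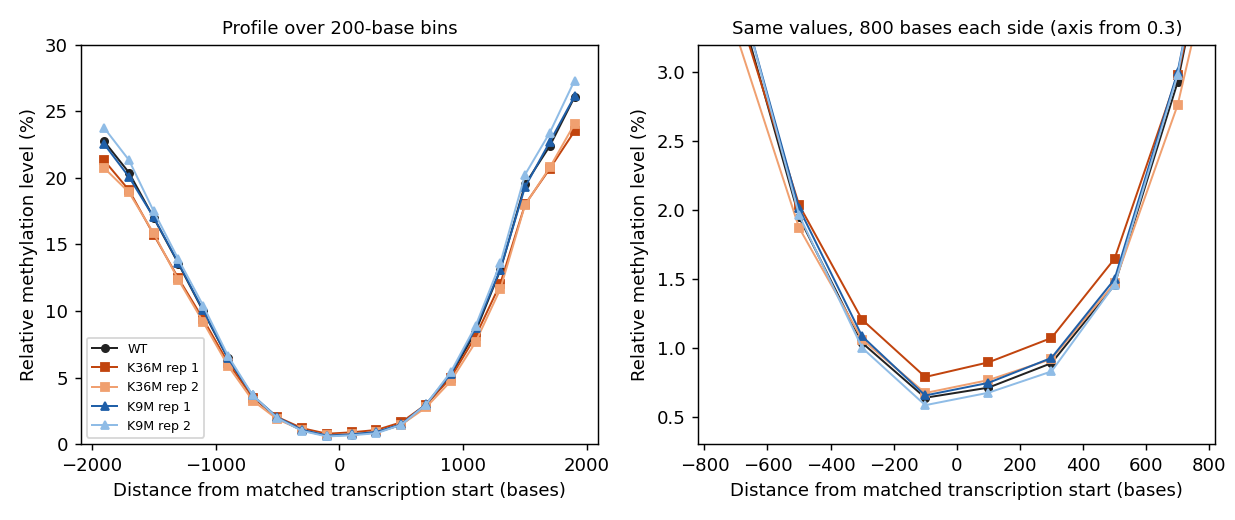
Relative methylation level in 200-base bins by distance from 6734 matched starts in members, per library; the right panel repeats the central bins on a narrower axis that starts at 0.3%. All 5 libraries reach their lowest value in the bin before the start, 0.583% to 0.788%, and the K36M curves lie lowest beyond 1000 bases.

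Fixed gene lists give named members. Among the DNA methylation enzymes 7 of 11 genes had a matched start in a member. The tiles of the de novo methyltransferases Dnmt3a and Dnmt3b (the latter named after its values were seen) were at 0.360% and 0.426% in WT, 0.465% and 0.559% in K36M replicate 1, 0.393% and 0.353% in K36M replicate 2, 0.344% and 0.413% in K9M replicate 1 and 0.275% and 0.348% in K9M replicate 2. Uhrf1, whose protein guides maintenance methylation, was between 0.271% and 0.507%, and Tet2, a dioxygenase that oxidises methylcytosine, between 0.198% and 0.349%. Tdg, the glycosylase that removes oxidised methylcytosine, was the highest of the list in WT and K36M, at 2.64% in WT, 3.60% and 2.79% in the K36M pair and 2.18% and 1.93% in the K9M pair. Tet3 was the only member of any list called in a comparison, and is given with K36M against K9M below.

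Of the genes that write, read or carry lysine 36 methylation or act at CpG islands, 9 of 18 were in members and all 9 stayed under 1% in the 4 libraries the rule did not use. Setd2 was at 0.432% in WT and 0.394% and 0.349% in K36M for the whole tile, and Kdm2b at 0.258%, 0.593% and 0.418%. The 2 genes that encode H3.3 itself, H3f3a and H3f3b, named after their values were seen, were at 0.227% and 0.364% in WT and between 0.259% and 0.544% in K36M. In the lysine 9 list 7 of 14 genes were in members, and Ehmt1 (GLP, which methylates lysine 9) was highest at 2.13% in WT, 2.31% and 1.78% in the K36M pair and 1.97% and 1.23% in the K9M pair. Its promoter window, here 250 bases before to 50 bases after the start, was at 0.256% to 0.420%, below the tile around it.

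No tile with the matched start of a blood regulator gene was called in any comparison. This covers those tiles only, not their neighbours. The tile before that of Gata2, which holds the start of Gm38708, was called lower in K36M against K9M replicate 1. It was at 1.12% in WT, 0.950% and 0.654% in the K36M pair and 2.93% and 2.26% in the K9M pair. The tile after that of Gata2 was called too, and both were named after their values were seen. Among blood stem cell regulators 9 of 20 were in members, with Runx1, needed for blood stem cells to form, at 1.27% in WT, 1.22% and 0.729% in the K36M pair and 1.74% and 1.65% in the K9M pair. Lymphoid regulators gave 7 of 14, with the T cell factor gene Tcf7 at 2.31%, 2.06%, 1.98%, 2.24% and 2.46% in the same order. Myeloid regulators gave 4 of 10, all under 1% in the 4 libraries the rule did not use except Irf8. Stem cell, lymphoid and myeloid starts were all low, with list medians in WT of 0.492%, 0.519% and 0.663%, and they give no check of the labelled cell type. Of 24 developmental regulators 6 were in members, and their list had the highest median, 1.13% in WT and 1.64% and 1.42% in K36M. Neurog1, a neural transcription factor, was at 3.77% in WT, 4.69% and 3.10% in the K36M pair and 3.19% and 4.24% in the K9M pair. No germline gene was in a member, although 9 of 12 were matched. Housekeeping genes gave 5 of 15, with values of 0.215% to 0.625% in the 4 libraries the rule did not use, and tumour suppressors 3 of 10, with Cdkn2a at 1.17% in WT, 1.19% and 0.911% in the K36M pair and 1.18% and 1.17% in the K9M pair.

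**Figure D3:**
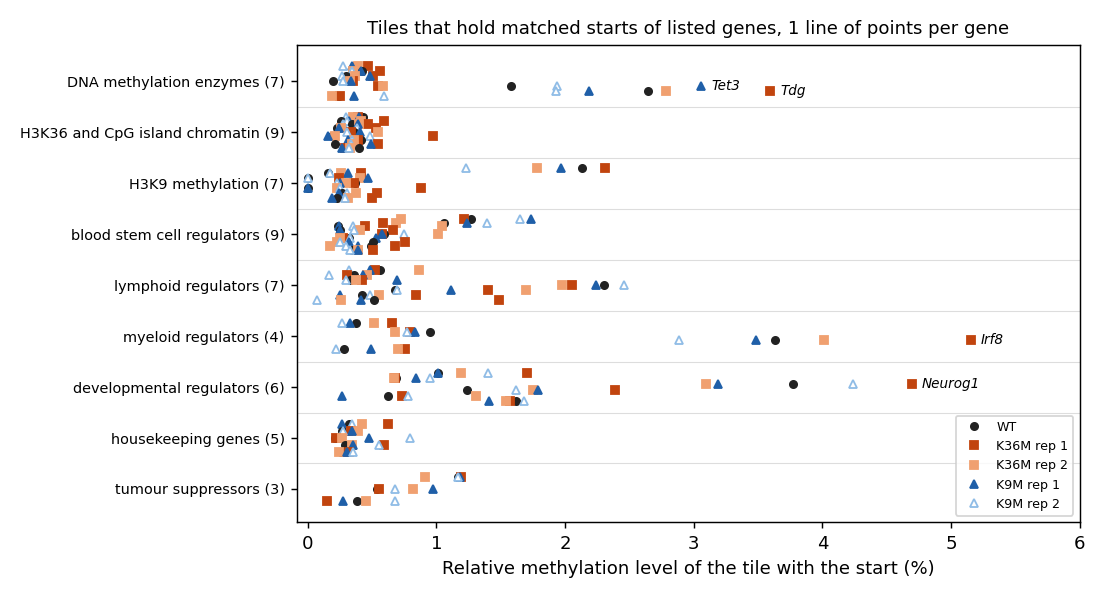
Relative level of the member tile that holds each listed gene's matched start, 1 line of 5 points per gene and 1 band per list, with the number of genes in brackets. Most genes lie under 1% in all 5 libraries; Irf8, Neurog1, Tdg and Tet3 reach 5.15%, 4.69%, 3.60% and 3.06%.

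Each of 3 comparisons was tested per tile with a logistic model on methylated and second counts, moderated dispersion and Benjamini-Hochberg adjustment over all 152678 tiles. Calling required an adjusted p below 0.05 and no minimum difference, since a tile near 0 cannot fall far. WT has 1 library and is assumed to vary like the mutants. K9M enters as replicate 1 only, where the dispersion rests on the K36M pair.

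In K36M against WT 31 members (0.284%) were lower, where 0.738% of all tiles were, and 11 members (0.101%) were higher, where 0.0367% of all tiles were. The median difference was 0.10 points in members and -0.48 points over all tiles. Calls were small: the lower members differed by 1.69 to 32.6 points with a median of -3.76, and the higher ones by 1.55 to 12.0 points with a median of 2.73. With at least 10 points, 2 members were lower and 1 was higher, against 0.605% and 0.0229% of all tiles. limma on relative levels called 0 in each direction, with 76 lower and 94 higher members at an unadjusted p under 0.05, against 263 and 697 in the logistic model. Without the plateau 7 were lower and 2 higher, and with deposited levels 0 were called in each direction, so none of the named calls in K36M against WT holds there. Leaving out any 1 mutant library gave 68 to 134 lower and 51 to 210 higher. Without K9M replicate 2, whose member levels the rule caps, 69 were lower and 53 higher.

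WT was the highest of the 4 libraries outside the rule in 26 of the 31 lower members. K9M replicate 1 was nearer to K36M than to WT in 20 of them. Both K36M libraries lay below both WT and K9M replicate 1 in 20 of the 31. These tiles were called because WT lay above K36M, so a high rank of WT follows in part from that choice. These 31 tiles averaged 7.51% in WT, 2.36% and 2.19% in the K36M pair and 3.83% and 3.79% in the K9M pair. A matched start lay in 11 of the 31. In the 11 higher members the means were 2.30% in WT, 6.11% and 6.56% in the K36M pair and 3.36% and 2.62% in the K9M pair, and both K36M libraries lay above both WT and K9M replicate 1 in 10 of 11.

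The member with the largest difference lies on chromosome 18 (chr18:30427001-30428000). It was at 35.4% in WT, with an exact (Clopper-Pearson) interval of 31.4 to 39.8% for 402 methylated counts. Both K36M libraries were low, at 3.33% and 2.25%, as was K9M replicate 1, at 1.04%. K9M replicate 2, which the rule caps, was at 5.91%. K36M lay -32.6 points from WT (adjusted p = 0.000196). All 21 measured CpGs, which span 201 bases, were highest in the 1 WT library, from 23.8% to 64.8%. CpGs this close can share reads, so they are not separate evidence. At chr11:48639001-48640000 the pattern was the same: WT was at 17.7%, both K36M libraries at 0.455% and K9M at 0.450% and 0.419% (K36M -17.3 points, adjusted p = 1.81e-06). All 27 measured CpGs were highest in WT there.

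A raised WT library also marked 2 runs of 3 adjacent tiles, named here after their values were seen except for the middle Actg1 tile. Around Actg1 (chr11:120209001-120212000) WT was at 4.59%, 5.87% and 2.60% from tile to tile. K36M replicates 1 and 2 were at 0.733% and 0.552%, at 0.658% and 0.748%, and at 0.327% and 0.545%. K9M replicate 1 was at 0.339%, 0.175% and 0.409%. The WT level was spread evenly: in the tile with the start 83 of 98 measured CpGs were highest in WT among the 4 libraries outside the rule, with a WT median of 4.44% per CpG. The adjusted p for K36M was 0.000293, 0.000275 and 0.00489. At Brd2, which encodes a bromodomain reader of acetylated histones (chr17:34255001-34258000), WT was at 4.13%, 4.28% and 3.34%, and the other 4 libraries were between 0.251% and 0.712%. K9M replicate 2, within that range, is capped by the rule. The adjusted p for K36M was 0.000735, 0.000708 and 0.00468.

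At Cdk2ap1 (chr5:124804001-124805000) the WT methylation stopped short of the promoter. The tile was at 5.39% in WT (exact interval 4.82 to 6.01%) and at 0.425% and 0.404% in the K36M pair and 0.367% and 0.320% in the K9M pair (K36M -4.97 points, adjusted p = 5.89e-05). In WT, 15 CpGs between 325 and 401 bases from the tile's first base were all at 9.26% or more, and 6 CpGs between 498 and 541 bases had 5.59% to 28.9%. The 40 CpGs from 554 bases on, which include those of the promoter printed above, were at a WT median of 0% and at most 2.61%. In K36M and K9M replicate 1 the median over the first of these stretches was at most 0.779%.

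Both K36M libraries lay below both WT and K9M replicate 1 in 20 of the 31 lower members. Of those among the 8 largest falls, the clearest separation was beside Cbfa2t3. The tile at chr8:125201001-125202000 begins 75 bases downstream of the matched Cbfa2t3 start. It was at 10.3% in WT, at 1.22% and 1.71% in K36M, and at 10.6% and 9.13% in K9M, so that both K36M libraries lay below both WT and K9M replicate 1. K36M averaged 1.46% ± 0.346 (SD, n = 2), -8.88 points from WT (adjusted p = 0.000102) and -9.16 points from K9M replicate 1 (adjusted p = 5.77e-24). Both K36M libraries were below WT at 34 of 54 measured CpGs and above it at 1. The 14 CpGs up to 479 bases into the tile, farthest from the start, had medians of 22.1% in WT, 1.71% and 2.55% in K36M and 26.9% in both K9M libraries. The promoter window itself, printed above, was at 1.15% in WT and 0.565% to 0.768% in the mutants.

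The other members named by size were smaller falls, and neither was called without the plateau (adjusted p = 0.391 at Ccdc116 and 0.239 near Ankrd63). Ccdc116 (chr16:17147001-17148000) was at 7.07% in WT, 2.71% and 2.01% in K36M and 4.53% in K9M replicate 1 (adjusted p = 0.00815). The tile at chr2:118528001-118529000, 699 bases downstream of the matched Ankrd63 start, was at 9.10% in WT, 5.07% and 3.90% in K36M and 8.35% in K9M replicate 1 (adjusted p = 0.00787). Within it 13 CpGs over 243 bases held 69.7% of the WT methylated counts, at 63.1% in WT, 34.8% and 25.2% in K36M and 54.5% in K9M replicate 1.

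Fbxo31, an F-box protein of a ubiquitin ligase, shows a call that depends on how CpGs are weighted. Its tile (chr8:124102001-124103000) was at 16.4% in WT, 8.53% and 7.88% in the K36M pair and 6.95% and 5.64% in the K9M pair (K36M -8.19 points, adjusted p = 0.00304). But 98.4% of the WT methylated counts came from 2 CpGs within 13 bases, whose levels were 80.2% in WT, 95.9% and 77.1% in K36M and 111% in K9M replicate 1. All other CpGs of the tile were at 0.332% to 0.538% in these 4 libraries. With every CpG given the same weight, the tile was at 4.73% in WT and at 5.50% and 4.69% in K36M, so the K36M mean was then above WT. Without the plateau the adjusted p was 0.259.

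**Figure D4:**
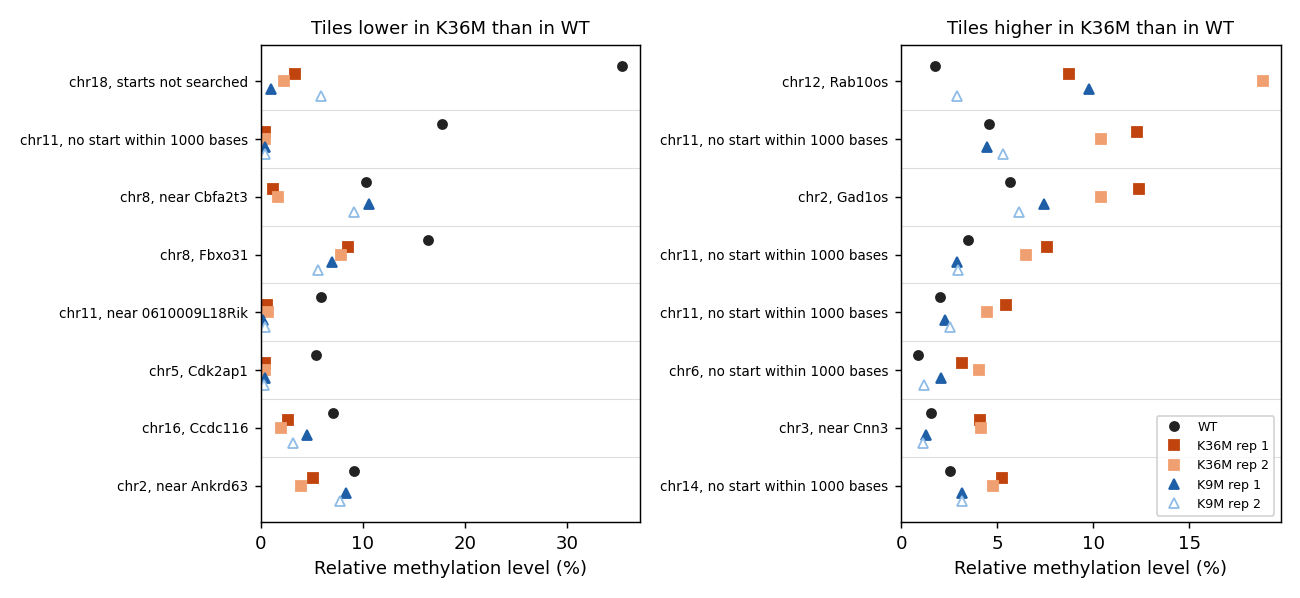
Relative level of the 8 members with the largest fall (left) and the 8 with the largest rise (right) in K36M against WT, 1 point per library; open triangles mark K9M replicate 2, which the rule caps. WT lies highest in 7 of the 8 left rows, and both K36M libraries lie lowest at Cbfa2t3, Ccdc116 and near Ankrd63.

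Rises in K36M were led by Rab10os, a non-coding RNA antisense to Rab10 (chr12:3235001-3236000). It was at 1.76% in WT, 8.77% and 18.9% in the K36M pair and 9.80% and 2.89% in the K9M pair. K36M averaged 13.8% ± 7.14 (SD, n = 2), 12.0 points above WT (adjusted p = 0.0355), and all 35 measured CpGs were above WT in both K36M libraries. K9M replicate 1 was above WT at the same 35 CpGs, so the gain was shared by the 3 mutant libraries outside the rule. K9M replicate 2, at 2.89%, was nearer to WT than to K9M replicate 1, so the K9M pair differed here. Members reach 10.5% in that library, so 2.89% is well below the cap of the rule. Because that library chose the members, its level is a description only.

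Another rise was a run of 3 adjacent tiles on chromosome 11 (chr11:82744001-82747000), 22104 bases or more from the nearest matched start. WT was at 4.56%, 3.50% and 2.05%, K36M replicate 1 at 12.3%, 7.60% and 5.48%, and K36M replicate 2 at 10.4%, 6.51% and 4.48%. K9M replicate 1 stayed with WT, at 4.46%, 2.90% and 2.28%, and K9M replicate 2 was at 5.32%, 2.99% and 2.54%. The rise was 6.80, 3.55 and 2.93 points (adjusted p = 0.00100, 0.00861 and 0.0113). Both K36M libraries were above WT at 98 of 121, 64 of 106 and 51 of 93 measured CpGs.

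Other named rises were smaller. Gad1os (chr2:70401001-70402000), antisense to the gene of the GABA-making enzyme Gad1, was at 5.68% in WT, 12.4% and 10.4% in K36M and 7.45% in K9M replicate 1 (adjusted p = 0.0298). The tile at chr3:121130001-121131000, 542 bases downstream of the matched start of Cnn3 (a calponin of the actin cytoskeleton), was at 1.57% in WT, 4.13% and 4.18% in K36M and 1.28% in K9M replicate 1 (adjusted p = 0.0309). The tiles at chr6:84534001-84535000 and chr14:70478001-70479000, 484507 and 522777 bases from the nearest matched starts, rose by 2.73 and 2.48 points (adjusted p = 0.0344 and 0.0293). Of the 8 named rises, 4 (Rab10os, Gad1os, and those on chromosomes 3 and 6) passed the threshold by little, and their adjusted p reached 0.0529 to 0.0735 under another coverage minimum or plateau. Without the plateau the adjusted p was 1 at Gad1os and for the tiles on chromosomes 3, 6 and 14, and 0.187 and 0.284 for the middle and last tile of the chromosome 11 run.

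**Figure D5:**
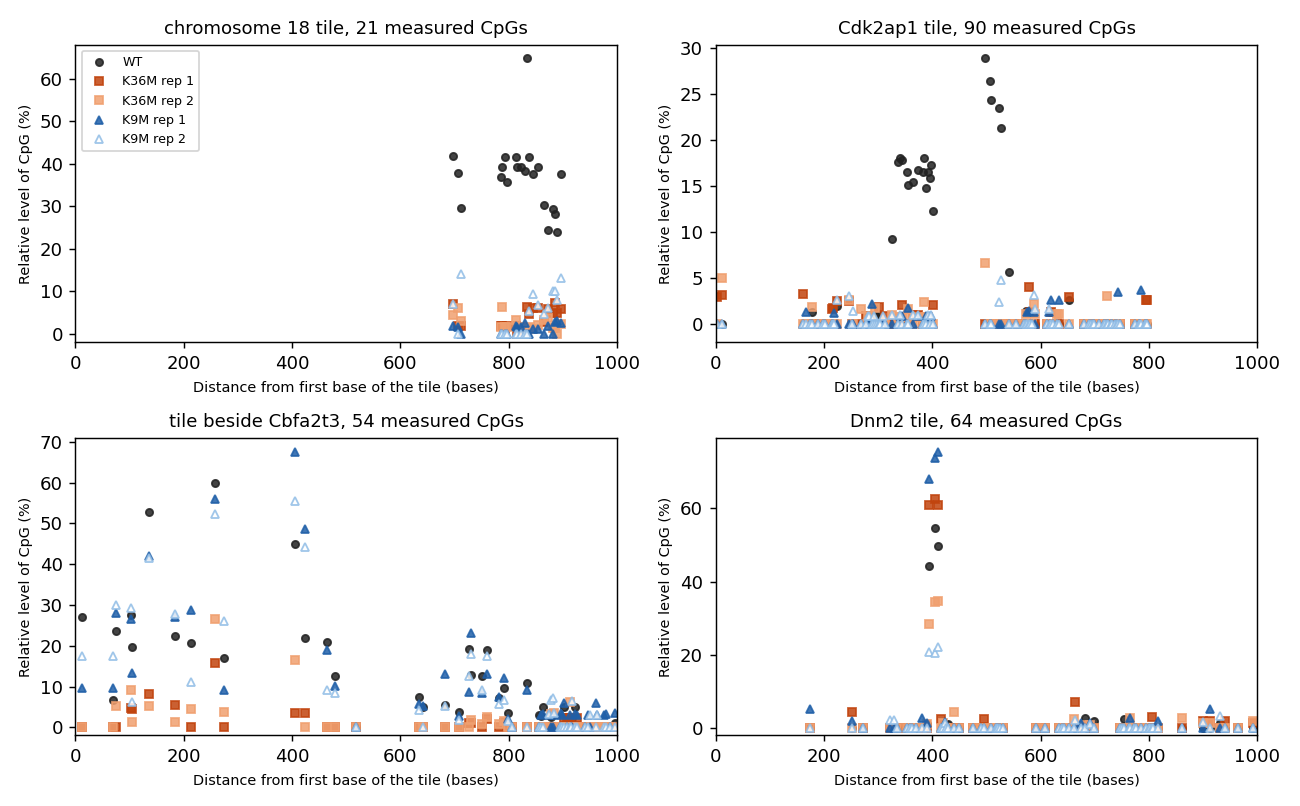
Relative level of each measured CpG by distance from the tile's first base in 4 members, 1 point per library. WT is highest at all 21 measured CpGs on chromosome 18 and in the stretch from 325 to 541 bases at Cdk2ap1, beside Cbfa2t3 the K36M points lie low where WT and K9M reach 60.01% and 67.6%, and at Dnm2 all libraries are raised at 3 neighbouring CpGs and under 10% elsewhere.

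K9M replicate 1 against WT, which shares the WT library with the comparison above, gave 31 lower members (0.284%) where 0.241% of all tiles were lower, and 36 higher members (0.330%) where 0.327% were. The shares in members were thus near those over all tiles. With at least 10 points, 3 were lower and 3 higher, against 0.169% and 0.23% of all tiles. Without the plateau 18 were lower and 58 higher. limma on relative levels called 0 in each direction, with 23 lower and 14 higher members at an unadjusted p under 0.05, against 159 and 252 in the logistic model. K9M replicate 1 was the lowest of the 4 libraries in 26 of 31 lower members and the highest in 32 of 36 higher ones. In 15 of the 36 both K9M libraries lay above the other 3, although the rule caps K9M replicate 2.

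The largest rise was at Dnm2 (chr9:21229001-21230000), with 6.76% in WT, 11.7% and 3.82% in K36M, 21.9% in K9M replicate 1 and 2.08% in K9M replicate 2 (15.1 points, adjusted p = 4.38e-18). It came from a few bases: 3 CpGs within 19 bases held 98.5% of the methylated counts of K9M replicate 1. Their mean second count over the libraries had a median of 152 per CpG, against 30.8 at the other CpGs of the tile. Those 3 CpGs stood at 49.6% in WT, 61.5% and 32.5% in the K36M pair and 72.3% and 21.0% in the K9M pair, and at all others 0.251% to 0.487%. A tile 90 bases downstream of the matched start of Paxip1, a gene of DNA repair and of lysine 4 methylation complexes, was alike (chr5:28117001-28118000). It was at 17.8% in WT, 31.4% and 7.25% in the K36M pair and 31.9% and 4.97% in the K9M pair (14.1 points, adjusted p = 1.39e-07), and 7 CpGs within 20 bases held 99.4% of those counts. The median second count per CpG was 610 there and 64.8 elsewhere in the tile. The third, at chr16:30063001-30064000, was at 15.8%, 19.7%, 10.4%, 26.4% and 5.68% (10.6 points, adjusted p = 3.82e-05), with 97.5% of counts in 7 CpGs.

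Such short stretches were common among the rises of K9M replicate 1 against WT. A member was counted when 90% or more of the methylated counts in its highest library lay in CpGs at 20% or more within 100 bases. That held for 12 of the 36 called higher in K9M replicate 1 against WT and for 3 of the 31 called lower. It held for 2 of 31 lower and 0 of 11 higher in K36M against WT. In K36M against K9M replicate 1 it held for 14 of 118 lower and 3 of 72 higher. Over all members the share was 77 of 10913 (0.706%), but a member near 0 can hardly meet the condition. Of members at 10% or more in K9M replicate 1 it held for 8 of 71 (11.3%). By the level in WT it was 8 of 82 (9.76%), and by K36M replicates 1 and 2 it was 5.83% and 3.80%. Given the same weight for every CpG, all 36 higher and 30 of 31 lower calls kept their direction, but the 3 largest rises were far smaller. On that scale Dnm2 was at 2.51% in WT and 3.79% in K9M replicate 1, the tile near Paxip1 at 3.21% and 5.95%, and the chromosome 16 tile at 5.39% and 6.21%. The part that high depth at such CpGs has in these calls was not tested.

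At least 1 rise was spread over its tile. Ppp2r5a, a regulatory subunit of protein phosphatase 2A (chr1:193220001-193221000, named after its values were seen), was at 1.15% in WT, 1.30% and 1.08% in the K36M pair and 7.76% and 7.81% in the K9M pair. K9M replicate 1 was 6.61 points above WT (adjusted p = 2.98e-17), and both K9M libraries were above the other 3 at 73 of 136 measured CpGs. The 23 CpGs in its promoter window (250 bases before to 50 bases after the start) stayed at 0.242% to 0.623% in all 5 libraries. The other CpGs were at 1.24% in WT and 8.10% and 8.17% in K9M. Over the 15 tiles called higher that hold a matched start, the window was under 1% in K9M replicate 1 in 6 and below the rest of the tile in 12. Falls were led by the 2 tiles with raised WT on chromosomes 18 and 11 given above (-34.4 and -17.3 points, adjusted p = 3.94e-65 and 1.54e-42). The next was chr8:90467001-90468000, 15494 bases downstream of the matched Zfp423 start, with 32.8% in WT, 36.7% and 11.4% in the K36M pair and 14.4% and 10.3% in the K9M pair (adjusted p = 2.14e-11).

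K36M against K9M replicate 1 called 118 members lower (1.08%), where 2.27% of all tiles were, and 72 higher (0.660%), where 0.354% were. Without the plateau 164 were lower and 42 higher. limma on relative levels called 0 in each direction, with 50 lower and 32 higher members at an unadjusted p under 0.05, against 337 and 467 in the logistic model. With at least 10 points, 4 members were lower, against 1.69% of all tiles, and 0 were higher, against 0.189%. The 3 largest falls were the tiles at Dnm2 (-14.1 points, adjusted p = 2.99e-21), near Paxip1 (-12.6 points, adjusted p = 1.36e-09) and on chromosome 16 (-11.3 points, adjusted p = 2.27e-09), whose methylated counts lie in few CpGs.

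Tet3, which encodes another such dioxygenase and shares its tile with the start of B230319C09Rik, was among the lower members (chr6:83391001-83392000). Its tile was at 1.58% in WT, 0.548% and 0.586% in the K36M pair and 3.06% and 1.94% in the K9M pair. Both K36M libraries thus lay below both WT and K9M replicate 1. K36M was lower than K9M replicate 1 (adjusted p = 1.83e-06), while neither K36M nor K9M replicate 1 was called against WT (adjusted p = 0.291 and 0.672). Among rises with both K36M libraries on the same side, the largest beside the chromosome 11 run were at chr8:19892001-19893000 and chr5:27144001-27145000. The tile on chromosome 8 was at 15.7% in K36M replicate 2 and at 2.52% to 5.92% in the other 4 libraries (6.57 points, adjusted p = 1.04e-15), so the call rests on 1 library. The tile on chromosome 5 was at 15.5% and 14.1% in K36M, 14.3% in WT and 7.55% in K9M replicate 1 (7.23 points, adjusted p = 4.13e-05). The 8.67% in K9M replicate 2 is capped by the rule.

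Gains of a library over the median of the others were counted next. A gain was a level at least 10 points above the median of the other 3 among WT, K36M replicates 1 and 2 and K9M replicate 1. WT had 3 such members, K36M replicate 1 had 2, K36M replicate 2 had 3 and K9M replicate 1 had 3, of 10913. Without the plateau K9M replicate 1 had 16 and the others 5, 3 and 5, and with deposited levels K9M replicate 1 had 9. At 5 points the counts were 9, 17, 12 and 29. The largest in WT were the chromosome 18 tile and the tile near Zfp423, which K36M replicate 1 shared at 36.7%. The other gain of K36M replicate 1 was the tile near Paxip1, at 31.4%, which K9M replicate 1 shared at 31.9%. Neither gain of K36M replicate 1 was thus in that library alone. In K36M replicate 2 the largest besides chr8:19892001-19893000 was chr1:140738001-140739000, at 18.7%, where WT was at 3.37%, K36M replicate 1 at 3.93% and K9M at 5.10% and 2.69%.

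Tiles next to the threshold of the rule are given without a test. The 3 members just inside it, at 9.98%, 9.99% and 9.99% by the rule's level, were at 4.18%, 9.02% and 10.2% in WT. The 3 tiles just outside, at 10.0%, 10.1% and 10.1%, were at 12.7%, 14.4% and 11.0% in WT. Pooling the rule's level over all listed CpGs, not only those measured in all 5 libraries, gave 10907 members, of which 10900 were the same tiles.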

How the data were processed

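Per the labels' protocols, DNA was cut with MspI, bisulfite-converted and sequenced; cutadapt, BSMAP and mm9 appear in the submitters' processing notes, with no versions. For each CpG the authors deposited a total count and a level as a fraction, by a formula not given in the sources used here. The methylated count is the rounded product of both deposited columns. Levels were divided by the library plateau, a median of methylated over second count in the 20% of tiles ranked highest on average (1.23 in WT, 1.22 and 1.26 in K36M, 1.37 and 0.954 in K9M). Tiles are 1000 bases.

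Members and gene lists were chosen with earlier results of these data known. The logistic model per tile had log plateau as offset, Pearson dispersion moderated along mean count by squeezeVar in limma 3.58.1 under R 4.3.3, never under 1, and an F test. K36M against WT used all 5 libraries (2 residual degrees of freedom). The comparisons with K9M replicate 1 left K9M replicate 2 out (1 residual degree of freedom, from the K36M pair). The model was tested on simulated data for K36M against WT over 152678 tiles. Of members raised in K36M, 100 of 100 at 5 points and 100 of 100 at 10 points were called. There were 5 false calls among 205. No fall and no change under 5 points was simulated, while called members had median differences of -3.76 (lower) and 2.73 points (higher). The simulated libraries varied by a coefficient of variation of 5% on the odds. The K36M pair differed by more at some tiles, such as Rab10os, and also on average, with member means of 1.49% and 1.30%. The simulated spread was smaller than this, so these rates cannot be carried over to the data. Replicate numbers were not used to pair the samples in the main fits: 2 pairs are too few to tell, and the labels name nothing shared.

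Of 13800 autosomal RefSeq promoters with at least 10 CpGs, 10229 matched the mm9 positions once and 58 more than once. On the next-numbered chromosome 10 matched, and 10191 of 10192 neighbouring pairs kept the reference order. No coordinate of GRCm38.p6 was used. Named tiles were up to 8 per direction by size in K36M against WT and 3 in the others with both K36M libraries on 1 side, the 2 largest gains per library, the 3 highest and the 3 densest members. One tile that this rule names is not reported here. Named list genes were chosen from those with the most matched CpGs, plus any that was called; others were named after their values were seen.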

Additional observations from a re-analysis of the deposited data

How the results depend on the processing

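The number of called members depended strongly on the setting. In K36M against WT the 31 lower members became 7 without the plateau, 0 with deposited levels, 0 with limma on relative levels and 2 with a minimum of 10 points. The 11 higher members became 7 at a coverage minimum of 5, 2 without the plateau, 0 with deposited levels, 0 with limma and 1 with a minimum of 10 points. Leaving out each mutant library in turn gave 68 to 134 lower and 51 to 210 higher members, where 1 residual degree of freedom was left and the dispersion came mostly from the trend. Without K36M replicate 1 the counts were 134 and 106, without K36M replicate 2 they were 84 and 210, without K9M replicate 1 they were 68 and 51, and without K9M replicate 2 they were 69 and 53. In K9M replicate 1 against WT, 18 members were lower both without the plateau and with deposited levels, 0 with limma and 3 with 10 points, and 58 were higher both without the plateau and with deposited levels, 0 with limma and 3 with 10 points. In K36M against K9M replicate 1 the 118 lower members became 0 with limma and 4 with 10 points, and the 72 higher became 42 without the plateau and with deposited levels, 0 with limma and 0 with 10 points. With deposited levels the member median was 0.442% in K9M replicate 2 and 0.695% in K9M replicate 1, and both enter the dispersion of K36M against WT. The cause of these changes in number was not tested.

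With the replicate number as a block, K36M against WT gave 42 lower and 62 higher members. The replicate differences of K36M and K9M correlated at 0.0946 over members. With 2 pairs, this cannot tell whether samples of the same number share anything else.

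The mean difference of K9M replicate 1 from WT, 0.0408 points, was 0.232 without the plateau, 0.212 with deposited levels and 0.405 with pooled counts. Single gains of 3 (WT), 2 and 3 (K36M) and 3 (K9M replicate 1) members became 5 in WT, 5 in K36M replicate 2 and 16 in K9M replicate 1 without the plateau. With deposited levels they were 1 in K36M replicate 1 and 9 in K9M replicate 1. At 5 points they were 9, 17, 12 and 29.

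Of 28 named calls, 24 kept their call under the settings other than limma, no plateau and deposited levels. Without the plateau 9 of the 28 were lost, and with deposited levels 16, which are all those in K36M against WT. With limma their adjusted p ran from 0.600 to 1. Weighting every CpG the same, an alternative added after seeing the data, kept the direction of 30 of 31 and 11 of 11 calls in K36M against WT. Depth limits levels near 0, where a tile with no methylated count allows up to 0.160% to 6.05%.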

Other observations

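On the X chromosome, which was left out of the fits, 243 of 445 dense tiles met the same rule. The median of these X tiles was 0.562% in WT, 0.717% and 0.631% in the K36M pair and 0.587% and 0.498% in the K9M pair, above the autosomal median of the same library in all 5, where it was 0.488%, 0.639%, 0.537%, 0.510% and 0.464%. The means ran the other way: 0.993%, 1.20%, 0.997%, 1.11% and 0.938% on X were below the autosomal 1.27%, 1.49%, 1.30%, 1.31% and 1.20%.

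The 12 members with a mean second count per CpG over 5 times the member median averaged 14.3% in WT, 18.7% and 11.3% in the K36M pair and 17.97% and 7.72% in the K9M pair, and all 12 averaged 5% or more over the 4 libraries outside the rule.

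Among the calls of K9M replicate 1 against WT were tiles of predicted genes on chromosome 14, named after their values were seen. The tile of Gm3752 (chr14:8321001-8322000) was at 4.55% in WT, 1.53% and 1.85% in the K36M pair and 10.8% and 0.359% in the K9M pair. That of Gm3667 (chr14:7722001-7723000) was at 4.79%, 1.75%, 3.50%, 8.46% and 1.64% in the same order. The adjusted p of K9M replicate 1 against WT in the logistic model was 0.000547 and 0.0230 at these tiles. The tile of Gm3411 was called higher as well, at 3.82% in WT, 3.24% and 4.84% in the K36M pair and 7.34% and 3.06% in the K9M pair. Other tiles of such genes between chr14:3049001 and chr14:8492000 were called lower in K36M against K9M replicate 1. They include those of Gm2897, LOC115488283, Gm3739 and Gm38418, so calls at these genes are not isolated. Predicted genes of this kind have near-identical copies, and these values are uncertain.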
